A study of Mus musculus with 4 samples.

Results

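The mRNAs of 54 ribosome biogenesis and nucleolar proteins were followed between the cell bodies and the protrusions of YUMM1.7 cells, an established mouse melanoma cell line. The rule takes members by gene symbol from a list of nucleolar and ribosome assembly genes and uses no measured value, although the list was drawn up with earlier results of these data known. All 54 were found among the 16537 genes of the deposited table. The labels call the cells of both groups wildtype and name no treatment. Cells were plated on porous inserts coated with fibronectin underneath and fractionated the next day into cell bodies, scraped from the top, and protrusions, lysed from the cleaned membrane. Each fraction had 2 libraries of RNA depleted of ribosomal RNA, each from 6 inserts, and the fractions of a replicate came from the same inserts. A protrusion library holds whatever stayed on the membrane after cleaning, and it was made from a population of cells rather than from single protrusions.

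Ribosomes are assembled in the nucleolus. RNA polymerase I transcribes a long precursor of ribosomal RNA, small nucleolar ribonucleoproteins (snoRNPs) modify it, and a large set of assembly proteins fold, cut and package it into the small and the large subunit. A snoRNP consists of a small nucleolar RNA (snoRNA) that pairs with the ribosomal RNA and of a few core proteins, which methylate the ribose in C/D particles and make pseudouridine in H/ACA particles. The snoRNA stays in the nucleus, mostly cut from an intron, whereas the mRNA of each protein is exported and translated in the cytoplasm, so the RNA and the protein partners of a particle start from different compartments.

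Expression was given as TPM, the length-scaled share of a library's transcripts that a gene takes, and the libraries held 25857107 to 30996547 reads assigned to genes. Every member was well covered, with 479 to 72365 reads in any library, and passed the filter of a mean of at least 1 TPM that 11400 genes passed. Since TPM is a share, fewer molecules of an mRNA and more of other RNAs in the same fraction cannot be told apart. Protrusions replicate 1 stood apart: all 15 liver markers in the table were highest there, with a summed level of 63.6 TPM against 1.00 to 3.16 TPM in the other libraries. Without that library the median log2 fold change was -0.10 over the members and -0.08 over all genes, and 0 members were called (limma; 12 at an unadjusted p under 0.05). P-values measure the spread between 2 libraries a fraction. Of 10 melanocyte markers 6 were in the table. *Mitf*, the lineage transcription factor, was at 5.12 to 6.17 TPM and *S100b* at 2.55 to 5.86 TPM, whereas *Pmel* and *Tyr*, both pigment genes, and *Ednrb* were at or under 0.762 TPM in every library. Nearly all of the summed level came from *Cd63*, a gene many cell types express, at 526 and 575 TPM in cell bodies and 271 and 321 TPM in protrusions.

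Few ribosome biogenesis mRNAs were called between the fractions. One member, *Nop56*, was lower in protrusions and 0 were higher (limma on log2(TPM + 0.5), Benjamini-Hochberg adjusted p under 0.05), while 4.25% of all genes tested were lower and 2.99% higher. The log2 fold change, taken throughout as protrusions relative to cell bodies, had a median of -0.14 over the 54 members and -0.07 over all 11400 genes. Before adjustment 20 members had p under 0.05, which is 37.0% of the members beside 31.3% of all genes. Of these 16 were lower (29.6%, beside 18.7%) and 4 higher (7.41%, beside 12.6%). A second tool, limma voom on whole reads recovered from the table, called 4 members lower and 2 higher, which is 7.41% and 3.70% beside 7.71% and 6.72% of all genes tested.

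Most members had a change bounded within 2-fold, and more of them lay lower in protrusions than higher. Both protrusion libraries lay below both cell body libraries for 26 members (48.1%, beside 37.0% of all genes tested) and above them for 10 members (18.5%, beside 26.4%), and for the other 18 the fractions overlapped. Of the 54 members, 51 had a 95% confidence interval within a 2-fold change in either direction (94.4%, beside 74.1% of all genes), the exceptions being *Heatr1*, *Utp20* and *Tcof1*. The members were also more abundant than most genes, with a median of 68.2 TPM against 20.9 TPM over all genes tested. Together they took 7255 and 7695 TPM in the cell body libraries and 6588 and 6914 TPM in the protrusion libraries.

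Pairing the fractions by replicate raised the number of calls. With the replicate number as a block, 9 members were lower and 3 were higher. These are 16.7% and 5.56% of the members, beside 13.3% lower and 8.08% higher among all genes tested. The lower mRNAs were *Heatr1*, *Nop56*, *Utp20*, *Gnl3*, *Wdr75*, *Gnl2*, *Utp3*, *Wdr43* and *Nop58*, and the higher mRNAs were *Tcof1*, *Naf1* and *Noc2l*. The log2 ratios of replicates 1 and 2 correlated at Pearson's r = 0.70 (Spearman's rho = 0.73) across the 54 members, and at 0.63 (0.74) across all genes tested. These correlations are across genes of the same 4 libraries, which are not independent replicates.

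**Figure D1:**
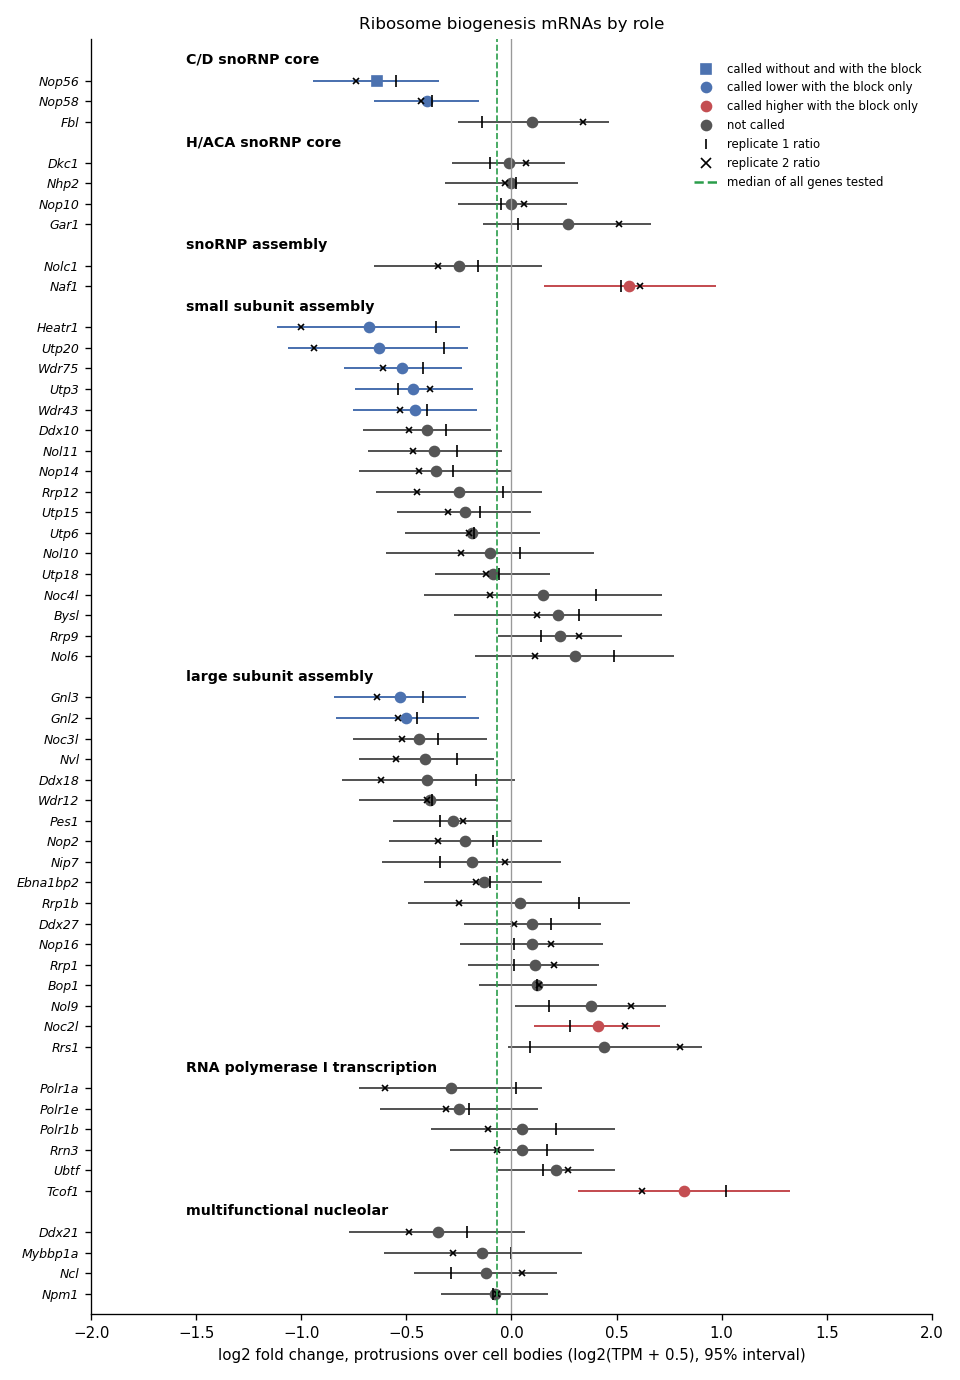
Log2 fold change of each of the 54 mRNAs between protrusions and cell bodies (x axis) by role, with the 95% interval of the fit without the block as a bar, the ratio of replicate 1 as a tick and of replicate 2 as a cross. Colour marks the call with the replicate block, and *Nop56* (square) was the one member called without it. Most intervals cross or come near the dashed median of all genes, -0.07.

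The core proteins of C/D snoRNPs had a median of -0.40 over only 3 genes, the lowest of the roles. After a correction for GC content it was -0.11, and that of small subunit assembly, at -0.15, was lower. *Nop56* and *Nop58* encode the paired scaffold proteins that hold a C/D particle together, and *Fbl* encodes fibrillarin, its methyltransferase. *Nop56* (mm10, chr2:130274412-130279313, plus strand) was at 304 and 355 TPM in cell bodies and at 208 and 213 TPM in protrusions. Its protrusion libraries were nearly equal and lay well below both cell body libraries. The mean of 330 ± 35.8 TPM in cell bodies compared with 211 ± 3.07 TPM in protrusions (SD, n = 2 each). On the log2 scale the change was -0.64 (SE 0.12, 95% interval -0.94 to -0.35, adjusted p = 0.0425 from limma), or 1.56-fold lower. Without any one library the log2 fold change ranged from -0.75 to -0.53 and no longer passed, with a smallest adjusted p of 0.0899 from limma.

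*Nop58* (chr1:59685006-59711510, plus strand) was the most abundant of the snoRNP mRNAs, at 386 and 397 TPM in cell bodies and 297 and 295 TPM in protrusions. The replicates of each fraction were close and the fractions did not overlap. Its log2 fold change was -0.40 (95% interval -0.65 to -0.16), with an adjusted p of 0.0647 from limma without the block and 0.0328 with it. *Fbl* did not share the direction of its partners: it was at 212 and 172 TPM in cell bodies and 193 and 217 TPM in protrusions. The fractions overlapped, and the log2 fold change was 0.10 (95% interval -0.25 to 0.46).

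The H/ACA core mRNAs were close to evenly distributed. *Dkc1*, which encodes dyskerin, the pseudouridine synthase, was at 134 and 128 TPM in cell bodies and 125 and 135 TPM in protrusions (log2 fold change -0.01, 95% interval -0.28 to 0.25). *Nop10* was at 169 and 164 TPM in cell bodies and 164 and 170 TPM in protrusions (95% interval -0.25 to 0.26). *Nhp2* was at 181 and 209 TPM against 184 and 204 TPM (95% interval -0.31 to 0.31). The libraries of these 3 genes interleaved, and each interval lay within a 2-fold change, as did 74.1% of those of all genes tested. *Gar1*, the fourth core protein, was at 38.9 and 30.2 TPM in cell bodies and 39.6 and 43.0 TPM in protrusions. Its fractions did not overlap, but replicate 1 of each was nearly equal, and the log2 fold change of 0.27 (95% interval -0.13 to 0.66) did not pass (adjusted p = 0.306 from limma).

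The assembly factors differed from each other. *Naf1*, whose product holds the place of the *Gar1* protein on immature H/ACA particles, was at 15.1 and 12.4 TPM in cell bodies and 21.9 and 19.1 TPM in protrusions. Both protrusion libraries lay above both cell body libraries, by a log2 fold change of 0.56 (95% interval 0.16 to 0.97), with an adjusted p of 0.0874 from limma without the block and 0.0337 with it. *Nolc1*, which encodes the snoRNP chaperone Nopp140, was at 78.8 and 102 TPM in cell bodies and 70.4 and 80.2 TPM in protrusions, with overlapping fractions and a log2 fold change of -0.25 (95% interval -0.65 to 0.14). *Naf1* was among the 3 least abundant members.

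**Figure D2:**
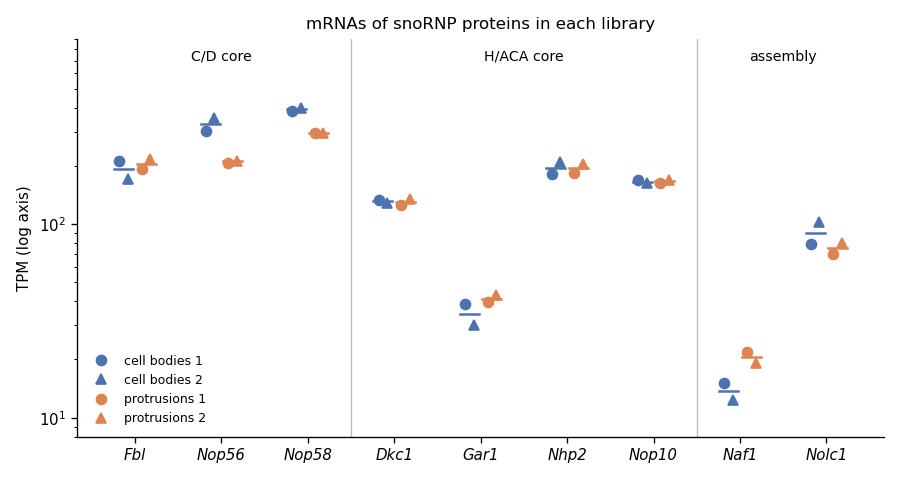
TPM (y axis, log scale) of the 9 mRNAs of snoRNP core and assembly proteins in each library, with replicate 1 as circles, replicate 2 as triangles and the mean of a fraction as a line. *Nop56* and *Nop58* lie lower in both protrusion libraries (orange) than in both cell body libraries (blue), whereas the points of *Dkc1*, *Nhp2* and *Nop10* overlap.

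The mRNAs of the protein partners were set beside the snoRNA genes. The median log2 ratio of the 9 snoRNP mRNAs was -0.10 in replicate 1 and 0.06 in replicate 2. With the block 2 of the 9 were called lower (22.2%, beside 13.3% of all genes tested) and 1 higher (11.1%, beside 8.08%). The 111 snoRNA genes (67 C/D, 35 H/ACA and 9 scaRNA genes by symbol) had medians of -0.69 and -1.03 in the same replicates. Beside 4.25% of all genes tested, 26 of 67 C/D snoRNA genes (38.8%) were called lower, and 1 of the 3 C/D core mRNAs (33.3%). The second share rests on 1 gene, *Nop56*. The median log2 fold change was -0.87 over the C/D snoRNA genes and -0.40 over the C/D core mRNAs, and after GC correction -0.72 and -0.11. Of the H/ACA snoRNA genes 16 of 35 (45.7%) were called lower by limma, and 0 of the 4 H/ACA core mRNAs. Among these core mRNAs 0 were lower at an unadjusted p under 0.05 (beside 18.7% of all genes tested), with the block (13.3%) or by voom (7.71%). At such shares a count of 0 over 4 genes says little about these mRNAs. The difference between the classes was not tested, as 2 replicates allow no permutation test that could pass. The snoRNA genes rest on far fewer reads, and 11.7% of them had an interval within a 2-fold change, beside 74.1% of all genes tested.

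**Figure D3:**
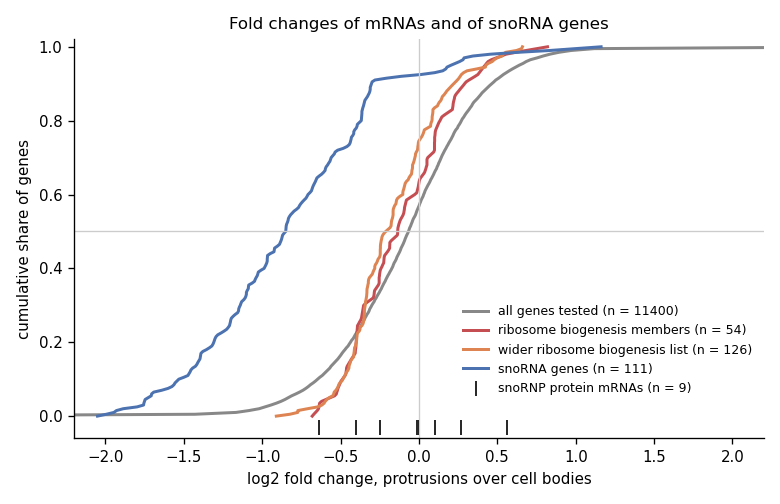
Cumulative share of genes (y axis) by log2 fold change (x axis, protrusions against cell bodies) for the members, the wider ribosome biogenesis list, the snoRNA genes and all genes tested, with the 9 snoRNP mRNAs as ticks. The curve of the members runs near that of all genes, with medians of -0.14 and -0.07, and the curve of the snoRNA genes lies to the left, with a median of -0.85.

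Measured snoRNA genes lie inside the transcription unit of 5 members, so that mRNA and snoRNA come from the same primary transcript. The hosts are *Nop56*, *Nop58*, *Wdr43*, *Gnl3* and *Ncl*, with 2 snoRNA genes each. All 10 are shown, since the comparison with the hosts rests on them, as GENCODE M21 gives them on GRCm38 (the assembly also named mm10). Capitals mark TGATGA and the last CTGA, the letters of boxes C and D, in *Snord* sequences, and ACA placed 3 bases before the end in the *Snora* sequence. They mark matching letters only. In *Snord53* the marked CTGA lies inside the sequence and not near its end as in the other *Snord* sequences, so it may not be box D.
Snord110 (in *Nop56*, chr2:130275506-130275573, plus strand): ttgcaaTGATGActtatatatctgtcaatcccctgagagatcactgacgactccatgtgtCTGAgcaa
Snord57 (in *Nop56*, chr2:130278016-130278087, plus strand): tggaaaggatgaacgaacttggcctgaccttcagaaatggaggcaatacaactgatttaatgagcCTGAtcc
Snord70 (in *Nop58*, chr1:59691934-59692020, plus strand): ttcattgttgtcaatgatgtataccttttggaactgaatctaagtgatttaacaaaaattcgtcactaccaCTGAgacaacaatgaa
Snord11 (in *Nop58*, chr1:59704790-59704873, plus strand): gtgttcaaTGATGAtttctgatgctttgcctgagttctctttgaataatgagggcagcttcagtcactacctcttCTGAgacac
Snord92 (in *Wdr43*, chr17:71631281-71631365, plus strand): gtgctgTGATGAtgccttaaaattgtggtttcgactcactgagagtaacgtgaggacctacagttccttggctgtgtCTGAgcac
Snord53 (in *Wdr43*, chr17:71640879-71640956, plus strand): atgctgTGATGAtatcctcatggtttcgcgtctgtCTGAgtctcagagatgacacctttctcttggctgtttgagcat
Snord69 (in *Gnl3*, chr14:31014287-31014366, minus strand): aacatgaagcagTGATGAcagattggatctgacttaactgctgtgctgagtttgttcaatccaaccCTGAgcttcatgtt
Snord19 (in *Gnl3*, chr14:31016206-31016281, minus strand): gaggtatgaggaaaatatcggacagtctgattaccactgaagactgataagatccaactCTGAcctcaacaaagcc
Snora75 (in *Ncl*, chr1:86351169-86351301, minus strand): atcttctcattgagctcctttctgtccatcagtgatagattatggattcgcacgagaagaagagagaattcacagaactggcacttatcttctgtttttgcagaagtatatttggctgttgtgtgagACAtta
Snord82 (in *Ncl*, chr1:86356261-86356330, minus strand): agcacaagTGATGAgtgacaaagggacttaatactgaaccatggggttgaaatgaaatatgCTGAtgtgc
The exact letters TGATGA were not found in Snord57, Snord70 and Snord19. Over all annotated *Snord* transcripts 74 of 98 (75.5%) held the letters TGATGA and CTGA in this order, which alone does not show that they are boxes C and D. The ACA was held by 35 of 42 *Snora* transcripts (83.3%). Only the transcribed strand was searched.

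In 7 of the 10 pairs the snoRNA had a lower log2 fold change than its host mRNA, and in 5 of 10 it was lower than the host in both replicates. *Snord82* was at 39.1 and 42.0 TPM in cell bodies and 15.3 and 9.50 TPM in protrusions, from 41, 37, 14 and 11 reads. It fell by 1.71 on the log2 scale (SE 0.23, adjusted p = 0.0347 from limma), while its host *Ncl* had a log2 fold change of -0.12. *Snora75*, in another intron of the same host, was at 25.2 and 35.2 TPM against 21.7 and 11.6 TPM, so its replicate 1 libraries were close and its replicate 2 libraries were not. With a log2 fold change of -0.88 it passed with the block (adjusted p = 0.0312 from limma) and not without it (0.129).

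The snoRNAs of *Gnl3* lay below their host as well. *Snord19* was at 82.9 and 107 TPM in cell bodies and 50.8 and 35.9 TPM in protrusions (log2 fold change -1.13, adjusted p = 0.0425 from limma), and *Snord69* at 42.9 and 52.3 TPM against 30.1 and 16.9 TPM (-1.05, adjusted p = 0.0729, and 0.00738 with the block). The host *Gnl3* had a log2 fold change of -0.53. In the C/D protein hosts the pairs diverged: within *Nop56* (-0.64) *Snord57* was at -0.89 and *Snord110* at -0.36, and within *Nop58* (-0.40) *Snord11* was at -1.09 and *Snord70* at 0.17. Neither *Snord110* nor *Snord70* passed in either fit. *Snord57* and *Snord11* passed with the block (adjusted p = 0.00499 and 0.0176 from limma) and not without it (0.0953 and 0.0818).

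Within *Wdr43* (-0.46), *Snord92* was at -0.36 and *Snord53* at -0.92, the latter from a table entry that spans 770 bases and overlaps a coding exon of its host. The 10 snoRNAs had 4 to 76 reads in a library, and reads of a mature snoRNA cannot be told apart from reads of the unspliced or intron-retaining host transcript at the same place. Retained-intron transcripts of the host are annotated over *Snord57*, *Snord53*, *Snord69*, *Snord19* and *Snora75*.

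**Figure D4:**
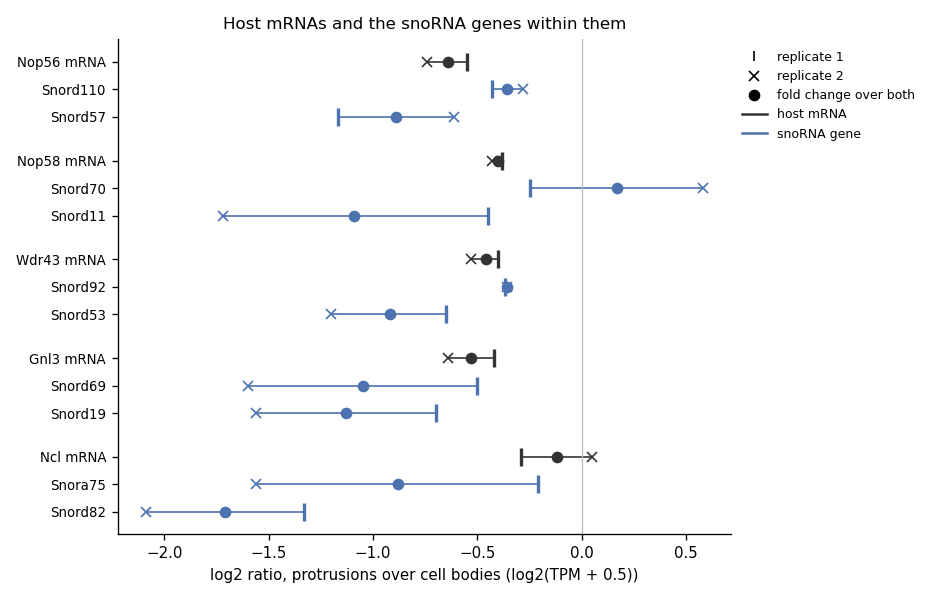
Log2 ratio of protrusions to cell bodies (x axis) of the 5 host mRNAs (dark) and the 10 snoRNA genes inside them (blue), with replicate 1 as a tick, replicate 2 as a cross and the fold change over both as a dot. The host ratios of both replicates lie between -0.74 and 0.05. In replicate 2 *Snord82*, *Snord11*, *Snord69*, *Snord19*, *Snora75* and *Snord53* lie below that range, at -2.09 to -1.20. *Snord57*, *Snord110* and *Snord92* lie within it there, and *Snord70* lies above it at 0.58. In replicate 1 only *Snord82* (-1.33) and *Snord57* (-1.17) lie below the range.

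Small subunit assembly factors had the lowest median of the larger roles. Across the 17 mRNAs the median was -0.25, and 0 of them were called by limma without the block, although 8 were lower at an unadjusted p under 0.05 and 0 higher. These 8 are 47.1% of the role, beside 18.7% of all genes tested. The voom fit called *Heatr1*, *Utp20* and *Wdr75*. With the block 5 were lower (29.4%, beside 13.3%) and 0 higher (beside 8.08%). After GC correction with the block 2 of the 17 were lower and 0 higher, beside 13.3% and 11.4% of 11322 genes. For 12 of the 17 (70.6%, beside 37.0%) both protrusion libraries lay below both cell body libraries.

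The largest decrease of any member was that of *Heatr1*, which encodes a large repeat protein of the complex that joins transcription of ribosomal RNA to its first processing steps. *Heatr1* (chr13:12395375-12438893, plus strand) was at 57.4 and 71.6 TPM in cell bodies and 44.7 and 35.4 TPM in protrusions. The decrease was small in replicate 1, a log2 ratio of -0.36, and large in replicate 2, at -1.0. The fold change of -0.68 (SE 0.17, 95% interval -1.11 to -0.25) had an adjusted p of 0.0684 from limma without the block and 0.0146 with it.

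*Utp20*, another very large protein of the small subunit processome, had the same profile, at 53.1 and 64.2 TPM in cell bodies and 42.4 and 33.1 TPM in protrusions. Its log2 ratios were -0.32 in replicate 1 and -0.94 in replicate 2, and its fold change of -0.63 (95% interval -1.06 to -0.21) passed with the block (adjusted p = 0.0196 from limma) and not without it (0.0759). Both mRNAs therefore carried most of their decrease in replicate 2.

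The other called members of this role changed by similar amounts in both replicates. *Wdr75* and *Wdr43* encode propeller proteins of the same transcription-linked complex as *Heatr1*. *Wdr75* was at 113 and 122 TPM in cell bodies and 84.3 and 79.8 TPM in protrusions, a log2 fold change of -0.52 (adjusted p = 0.0515 from limma, 0.0157 with the block). *Wdr43* (chr17:71616215-71659031, plus strand), the most abundant of the role, was at 148 and 169 TPM against 113 and 117 TPM (-0.46, adjusted p = 0.0677, and 0.0216 with the block). *Utp3*, a processome component, was at 113 and 109 TPM against 77.2 and 83.6 TPM (-0.47, adjusted p = 0.0605, and 0.024 with the block). In all 3 the fractions were clearly apart.

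On the other side of the role stood *Nol6*, an early processome protein, at 13.1 and 18.4 TPM in cell bodies and 18.7 and 19.9 TPM in protrusions. Its fractions barely separated, since cell bodies replicate 2 was close to protrusions replicate 1, and the log2 fold change of 0.30 (95% interval -0.17 to 0.77) did not pass. *Bysl*, which acts late in small subunit maturation and was the second least abundant member, was at 13.3 and 18.3 TPM against 16.7 and 19.9 TPM, with overlapping fractions (0.22, 95% interval -0.27 to 0.71). Without cell bodies replicate 1 its value was -0.00. The remaining 10 members of the role had log2 fold changes between -0.40 (*Ddx10*, a helicase) and 0.23 (*Rrp9*, a U3 snoRNP protein).

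Large subunit assembly factors were spread to both sides. Across the 18 mRNAs the median was -0.16, with 0 called without the block by limma or by voom (6 lower and 2 higher at an unadjusted p under 0.05 from limma) and, with it, 2 lower and 1 higher. At the unadjusted p these are 33.3% lower and 11.1% higher, beside 18.7% and 12.6% of all genes tested, and with the block 11.1% and 5.56%, beside 13.3% and 8.08%. All 18 intervals lay within a 2-fold change, beside 74.1% of those of all genes tested.

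The lower mRNAs of the role encode related GTPases of the nucleolus. *Gnl3*, or nucleostemin (chr14:31012433-31019131, minus strand), was the most abundant member of the role, at 186 and 223 TPM in cell bodies and 139 and 142 TPM in protrusions. It fell by 0.53 on the log2 scale (95% interval -0.84 to -0.22, adjusted p = 0.0612 from limma, 0.0127 with the block). *Gnl2* was at 81.0 and 95.7 TPM against 59.0 and 65.6 TPM (-0.50, adjusted p = 0.0765, and 0.0191 with the block). For both genes each protrusion library was below each cell body library, and the ratio was similar in the replicates.

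The higher mRNA was *Noc2l*, whose product escorts precursors of the large subunit out of the nucleolus. It was at 92.0 and 81.3 TPM in cell bodies and 112 and 119 TPM in protrusions (log2 fold change 0.41, 95% interval 0.11 to 0.70, adjusted p = 0.0874 from limma, 0.0452 with the block). Its fractions were apart in both replicates. *Noc3l*, a partner in the same pathway, lay on the other side, at 30.6 and 33.2 TPM against 23.9 and 23.0 TPM (-0.44, adjusted p = 0.0861, and 0.0619 with the block). *Rrs1*, needed for the 5S particle to join the large subunit, had the highest fold change of the role, 0.44, at 55.3 and 41.3 TPM against 59.0 and 72.3 TPM. Its replicates disagreed in size, with log2 ratios of 0.09 and 0.80, and it did not pass (95% interval -0.01 to 0.90, adjusted p = 0.168 from limma).

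*Noc3l* and the PeBoW complex were picked after their values were seen. The PeBoW subunits act as 1 unit in processing of the large subunit RNA. Among their mRNAs *Wdr12* was at -0.39 and *Pes1* at -0.28, and *Bop1* at 0.12 (log2 fold changes, none called in either fit). For *Wdr12* and *Pes1* both protrusion libraries were below both cell body libraries, and for *Bop1* both were above. The 95% intervals, -0.72 to -0.07, -0.56 to -0.00 and -0.15 to 0.40, overlapped, and a difference between the genes was not tested.

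Genes of RNA polymerase I transcription had a median of 0.05 on the log2 scale, and 0 of the 6 were called by limma without the block. At an unadjusted p under 0.05, 0 were lower (beside 18.7% of all genes tested) and 1 was higher (16.7%, beside 12.6%). With the block, and by voom, 1 was higher (16.7%, beside 8.08% with the block and 6.72% by voom among all genes tested). That mRNA was *Tcof1*, which encodes treacle, a nucleolar scaffold that supports transcription of ribosomal DNA. *Tcof1* was at 17.0 and 24.9 TPM in cell bodies and 34.9 and 38.7 TPM in protrusions. Both protrusion libraries were well above both cell body libraries, with means of 36.8 ± 2.66 TPM in protrusions and 21.0 ± 5.62 TPM in cell bodies (SD, n = 2 each). Its log2 fold change of 0.82 (SE 0.20, 95% interval 0.32 to 1.32), or 1.77-fold higher, was the largest of any member in either direction. The adjusted p was 0.0649 from limma without the block and 0.00543 with it, and without any one library the fold change stayed between 0.55 and 1.09.

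The mRNAs of the polymerase and its initiation factors changed less than *Tcof1*, and none was called in either fit. *Polr1a*, the largest subunit, was at 37.1 and 48.1 TPM in cell bodies and 37.7 and 31.6 TPM in protrusions, with overlapping fractions (log2 fold change -0.29, 95% interval -0.72 to 0.14). *Polr1e*, the least abundant member, was at 12.0 and 13.5 TPM against 10.4 and 10.8 TPM (-0.25, 95% interval -0.62 to 0.12). *Rrn3*, which makes the polymerase competent to start, was at 72.5 and 89.0 TPM against 81.5 and 85.0 TPM (0.05, 95% interval -0.29 to 0.39). *Polr1b* and the upstream binding factor *Ubtf* were at 0.05 and 0.21. Both protrusion libraries of *Ubtf* lay above both cell body libraries, at 87.1 and 87.6 TPM against 78.2 and 72.4 TPM (95% interval -0.06 to 0.49).

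The 4 proteins with several nucleolar roles included the most abundant mRNA of all 54. *Npm1*, nucleophosmin, was at 2580 and 2598 TPM in cell bodies and 2424 and 2474 TPM in protrusions. Its fractions did not overlap, but the decrease of 0.08 on the log2 scale (95% interval -0.33 to 0.17) was far from the threshold (adjusted p = 0.631 from limma). None of the 4 was called in either fit, by voom or at an unadjusted p under 0.05 without the block. Without the block 4.25% of all genes tested were lower and 2.99% higher, with it 13.3% and 8.08%, and by voom 7.71% and 6.72%. Before adjustment 31.3% had p under 0.05 (limma), so the lack of calls over 4 genes says little about this role. *Ncl*, nucleolin (chr1:86344719-86359455, minus strand), was at 306 and 299 TPM in cell bodies and 250 and 309 TPM in protrusions, with opposite directions in the replicates and a log2 fold change of -0.12 (95% interval -0.46 to 0.21). Its reads and TPM imply a gene model of 8257 bases, close to the longest annotated coding transcript of 8202 bases, so its level is low for its 27813 to 43495 reads, while its fold change does not depend on the length. *Ddx21*, a helicase of ribosomal RNA transcription and processing, was at 168 and 227 TPM against 145 and 162 TPM (-0.35, adjusted p = 0.214, and 0.0691 with the block). *Mybbp1a* overlapped between the fractions (-0.14).

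GC content, which the choice of members did not use, moved with their fold changes. The log2 fold change rose with the GC content of the longest coding transcript, at r = 0.61 (rho = 0.61) across the 54 members and r = 0.40 (rho = 0.40) across 10552 protein-coding genes. With the transcript nearest in length to the one implied by the table, r across the members was 0.61 as well. These correlations are across genes of the same 4 libraries and carry no p. The 27 members from 40.4% to 48.4% GC had a median fold change of -0.36 on the log2 scale with 24 below 0, and the 27 members from 50.3% to 59.8% GC had a median of 0.10 with 10 below 0.

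GC content moved with the calls too. When each library was corrected for GC content, the median of the members moved to -0.03, beside 0.00 for all genes, and *Nop56* was the one member called, at -0.58. With the correction and the block together 3 members were lower (*Nop56*, *Heatr1* and *Utp20*) and 2 were higher (*Naf1* and *Tcof1*), beside 13.3% and 11.4% of 11322 genes. The 7 other members called with the block alone, among them *Nop58* (adjusted p = 0.613 from limma) and *Noc2l* (0.134), did not pass this fit. Whether the relation to GC content arose in the cells or in the preparation of the libraries was not tested.

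**Figure D5:**
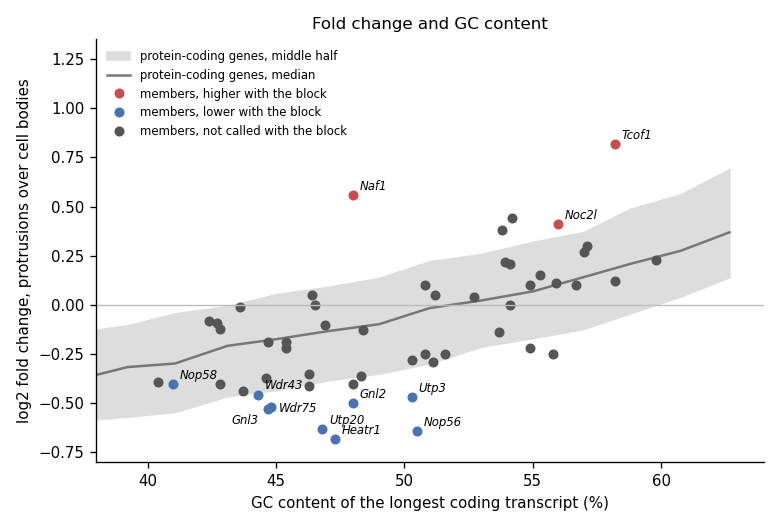
Log2 fold change between protrusions and cell bodies (y axis) against GC content of the longest coding transcript (x axis, percent) for the 54 members (points, coloured by the call with the replicate block) and for protein-coding genes (line, median; band, the middle 50% in bins of GC). Of the members 37 lie within the band, 5 above it (among them *Tcof1*, *Naf1* and *Rrs1*) and 12 below it (among them *Nop56*, *Heatr1*, *Utp20*, *Gnl2* and *Nop2*), and 3 of those above and 8 of those below were called with the block.

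A wider list held 127 further genes of ribosome biogenesis, of which 126 were tested. Of these, 5 were lower (3.97%, beside 4.25% of all genes tested) and 0 higher (beside 2.99%) without the block by limma. By voom 7 were lower and 3 higher, beside 7.71% and 6.72% of all genes tested. At an unadjusted p under 0.05, 35 were lower (27.8%, beside 18.7%) and 8 higher (6.35%, beside 12.6%). With the block 16 were lower and 7 higher, which is 12.7% and 5.56% beside 13.3% and 8.08%. The median log2 fold change was -0.21, against -0.07 over all genes. Both protrusion libraries lay below both cell body libraries for 71 of the 126 (56.3%, beside 37.0%) and above them for 18 (14.3%, beside 26.4%). Of the 126 intervals 118 lay within a 2-fold change (93.7%, beside 74.1% of all genes tested). *Taf1d*, a subunit of the promoter selectivity factor of RNA polymerase I, was at 207 and 220 TPM in cell bodies and 131 and 119 TPM in protrusions (-0.77, adjusted p = 0.0349 from limma). The replicates agreed within each fraction and the fractions were far apart.

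*Nol8*, a nucleolar RNA-binding protein, was at 33.5 and 35.8 TPM against 20.7 and 19.5 TPM (-0.77, adjusted p = 0.0367 from limma). *Skiv2l2*, the helicase that feeds RNA to the nuclear exosome, was at 129 and 133 TPM against 86.8 and 80.2 TPM (-0.65, adjusted p = 0.0382). The other 2 lower genes were *Tgs1* (-0.91), which encodes the enzyme that trimethylates the cap of some snoRNAs, and *Wdr3* (-0.61), a processome protein. With the correction for GC content and no block, 0 of the 126 passed, while 435 of 11322 genes were lower and 376 higher. With the correction and the block 15 of the 126 were lower and 5 higher, beside 13.3% and 11.4% of the 11322 genes.

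On the higher side the smallest p-values belonged to *Pelp1*, *Exosc5* and *Wdr46*. *Pelp1*, of a complex that matures the large subunit, was at 11.6 and 13.1 TPM in cell bodies and 19.4 and 19.9 TPM in protrusions (0.65, adjusted p = 0.0516 from limma, 0.0197 with the block). *Exosc5*, an exosome subunit, was at 21.0 and 21.1 TPM against 29.6 and 31.9 TPM (0.54, adjusted p = 0.0584, and 0.0284 with the block). *Wdr46*, a processome protein, was at 36.6 and 39.1 TPM against 49.5 and 57.2 TPM (0.49, adjusted p = 0.075, and 0.0284 with the block). In each of the 3 both protrusion libraries were above both cell body libraries.

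The mRNAs of the ribosome's own proteins give a further comparison. The 81 cytosolic ribosomal protein mRNAs, chosen after the data were seen, had a median of 0.29 on the log2 scale (0.35 after the GC correction) and took 180597 and 166249 TPM in cell body libraries and 209767 and 227427 TPM in protrusion libraries. Of these 7 were higher (8.64%, beside 2.99% of all genes tested) and 0 lower (limma; 39 higher, 48.1% beside 12.6%, and 0 lower at an unadjusted p under 0.05). Their difference from the assembly factors was not tested. Since TPM sums to the same total in every library, the rise of this class lowers the summed share of the other genes. It does not show which genes lost share. Protein-coding genes tested rose as well, from 891448 and 889073 TPM in cell body libraries to 921081 and 922739 TPM in protrusion libraries. The snoRNA genes fell from 10978 and 10179 TPM to 6027 and 4853 TPM. Whether the rise of the ribosomal protein mRNAs accounts for any of the members' median of -0.14 was not tested.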

How the data were processed

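RNA-seq of cell bodies and protrusions of YUMM1.7 cells was analysed, with 2 libraries of each fraction assigned from the labels. The authors deposited 1 table with TPM per gene and library, made from strand-specific single reads. The aligner differs between the sources: the paper's methods name TopHat, and the submitters' processing notes name STAR and featureCounts, with no version, on mm10. The table also holds the authors' mean log2 CPM, as deposited, and their own fold changes and p-values, which were not used. The design named a count model for counts and limma for TPM, and the table holds TPM.

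For the 11400 genes with a mean of at least 1 TPM, limma 3.58.1 under R 4.3.3 modelled log2(TPM + 0.5), letting the prior variance follow the mean level. Benjamini-Hochberg adjustment ran over all of them, calls used an adjusted p under 0.05, and intervals are 95% intervals. The fits left 2 residual degrees of freedom, or 1 once the replicate block was added. Fold changes on this scale understate those of genes at low TPM. On simulated data the share of false calls exceeded the nominal share, more so with the block, so single calls are weak.

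The replicate number pairs the fractions, since both came from the same inserts and the values are headed as paired in a supplement. Deviations of same-numbered libraries from the fraction means correlated at 0.447 over 11400 genes. Whole-read counts were recovered from ratios of the deposited TPM values within a gene, with a constant from the mean log2 CPM: all 16537 genes came out whole within 0.01 reads. They served for depth and voom. TPM carries no counting error of its own.

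GC content came from GENCODE M21 transcripts (15710 genes matched by symbol and 658 by synonym). Table starts are counted from 0 and are printed here plus 1. The 54 members, their roles, the wider list and the markers were chosen with earlier results of these data known, and no list was tested as a set. Named members were the 9 snoRNP genes, every member called in either fit, the largest fold in each direction and the most abundant gene of each role, hosts of snoRNA genes, the 3 least abundant members, and 6 genes of the wider list by p.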

Additional observations from a re-analysis of the deposited data

How the results depend on the processing

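Calls of single members depended on the fit; each member called in the fit without the block or with it kept its direction under every alternative. Members called higher and lower numbered 1 and 5 at a mean of at least 5 TPM, 3 and 9 with the replicate block, 1 and 1 with libraries centred on their median, 2 and 4 by voom, 6 and 9 by voom with the block, 0 and 1 after GC correction, 2 and 3 after GC correction with the block, and 3 and 6 with centring and the block, the last chosen after seeing the data. All genes called higher and lower numbered 505 and 801 at 5 TPM, 921 and 1513 with the block, 766 and 879 by voom, 1823 and 2047 by voom with the block, 1289 and 1506 after GC correction with the block, and 1560 and 1630 with centring and the block. They numbered 493 and 567 with centring alone and 376 and 435 after GC correction alone. The snoRNA genes called lower numbered 71, 68 and 72 in the TPM fits with the block, with GC correction and the block, and with centring and the block. With no filter on TPM, or with limma without a trend, 0 members, 0 of all genes and 0 snoRNA genes were called (20 and 16 members at an unadjusted p under 0.05). The median of the members was -0.03 after GC correction, with and without the block.

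Leaving out 1 library at a time, 0 members were called, all genes called lower were 0 to 144, all genes called higher 0 to 14, and snoRNA genes called lower 0 to 28. The calls that were left were those without protrusions replicate 1, the library with liver markers. The median of the members ranged from -0.26 (without cell bodies replicate 1) to -0.07, and of the snoRNP mRNAs from -0.07 to 0.04. The log2 fold change crossed 0 for *Bysl* (-0.00 to 0.44), *Dkc1* (-0.07 to 0.04), *Rrn3* (-0.10 to 0.20), *Fbl* (-0.05 to 0.25), *Nhp2* (-0.11 to 0.10), *Nop10* (-0.02 to 0.03), *Ncl* (-0.28 to 0.03) and *Snord70* (-0.73 to 1.07).

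The sign also changed for *Dkc1* and *Nhp2* with centring (0.07 and 0.08, with and without the block) and by voom (0.05 and 0.06, with and without the block), and after GC correction, with and without the block, for *Dkc1* (0.21), *Fbl* (-0.03), *Ncl* (0.13) and *Npm1* (0.18). The cause was not tested.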
